A study of Mus musculus with 7 samples.

Results

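Described here are 8 mouse genes, the interferon-linked ADP-ribosyltransferase genes Parp9, Parp10, Parp11, Parp12 and Parp14 together with Dtx3l, Rnf213 and Samd9l, out of 35498 genes with a listed transcript. The 8 were given by name, and all 8 passed the filter on low counts that left 14238 genes to test. They were selected on read counts of the same 3 KO and 4 WT libraries, that is, with their KO to WT differences known, so the KO to WT values of the 8 are given as a description. Where the fit over all genes put some of them past its threshold, that count describes the fit and is no test of the 8. RNA came from whole bone marrow of female mice, 5 to 6 months old, either Aim2 null (labelled KO, 3 libraries) or wildtype (WT, 4 libraries), with no other treatment named. The Aim2 protein binds DNA in the cytosol and nucleates an inflammasome. The deleted part of Aim2, the strain background, whether WT mice were littermates, and whether each library is 1 mouse are not given in the sources used here, so errors and p-values below measure the spread between libraries.

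The libraries held 20300468 to 21099972 estimated reads. Aim2 had 47 to 157 reads in the KO libraries and 533 to 601 in the WT libraries. Corrected for transcript length, it was at 5.73 to 10.4 TPM in KO and 16.2 to 19 TPM in WT, a smaller gap. The labels and the targeted gene thus went the same way, with some Aim2 signal left in KO. Haemoglobin genes took 11.3 to 13.7% of reads in KO and 13.8 to 19.9% in WT, highest in WT library 1. Of the marrow markers with a listed transcript, only the adipocyte markers Cidec and Lep were at 0 reads in a library. Of the 7 erythroid markers, 6 had a listed transcript. In whole marrow, fewer cells of a type and less RNA per cell cannot be told apart.

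ADP-ribosyltransferases of the PARP family move ADP-ribose from NAD onto proteins. Parp1 and its nearest relatives build chains and serve DNA repair, while Parp10, Parp11, Parp12 and Parp14 attach single units and are known as genes raised by interferon. Parp9 carries macrodomains, which bind ADP-ribose, and works as a pair with Dtx3l, a ubiquitin ligase of the deltex family. Rnf213 is a very large ATPase and ubiquitin ligase, and Samd9l restrains growth of blood-forming cells and acts against viruses. Type I interferon reaches such genes through the receptor Ifnar1/Ifnar2, the kinases Jak1 and Tyk2, and transcription factors such as Stat2 and Irf9.

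Of the 8 genes, 7 were higher in every KO library than in every WT library and Parp11 was not. Over all tested genes, 6.95% were higher in KO without overlap and 5.94% lower. The fitted fold changes of the 7 ran from 1.30 (Samd9l) to 1.75 (Rnf213). The median log2 fold change of the 8 was 0.67, beside -0.011 over all tested genes. At an adjusted p under 0.05 (edgeR's quasi-likelihood test, Benjamini-Hochberg over all genes) stood 2 of the 8, Rnf213 and Parp14, beside 0.646% of all tested genes (0.478% higher and 0.169% lower). Nothing is read from that count, since the choice of the genes used the contrast. With 1 library left out it was 1 to 3, as 1 (Rnf213) without KO library 1 or 2 or WT library 1, 2 or 3, 2 (Parp9 and Rnf213) without KO library 3, and 3 (Parp12, Parp14 and Rnf213) without WT library 4.

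**Figure D1:**
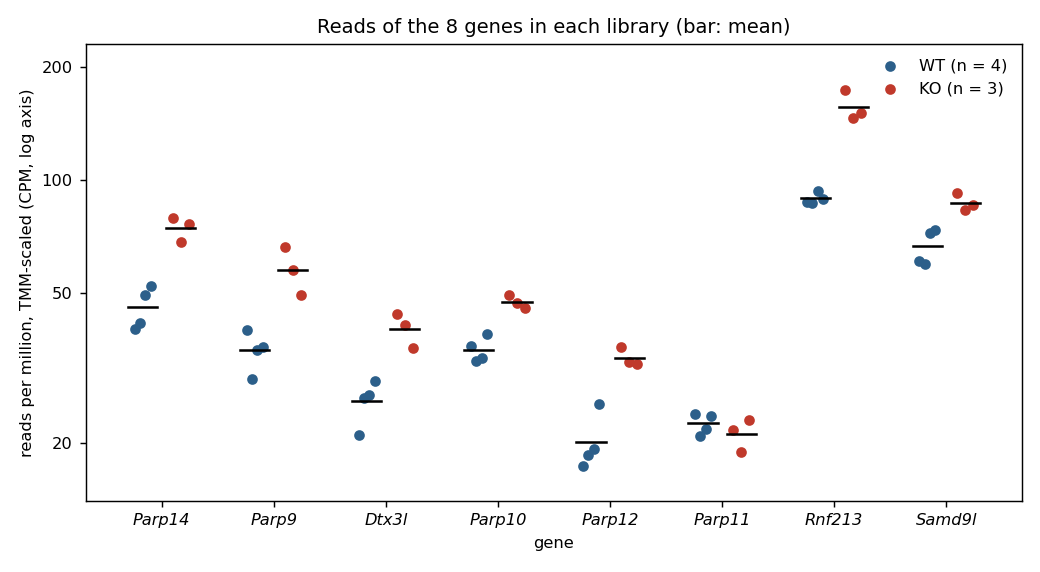
CPM (reads scaled to 1000000 per library with TMM factors, log axis) of the 8 genes with 1 point per library, WT in blue (n = 4), KO in red (n = 3) and a bar at each mean. For 7 genes every KO point lies above every WT point, and for Parp11 the groups overlap, with KO at 18.9 to 22.9 CPM and WT at 20.8 to 23.9 CPM.

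Parp14, Dtx3l and Parp9 lie side by side on chromosome 16. On GRCm38 (GENCODE M21) Parp14 spans 35832874 to 35871544 on the minus strand, Dtx3l spans 35926511 to 35939151 on the minus strand, and Parp9 spans 35938470 to 35972605 on the plus strand. Dtx3l and Parp9 are head to head and their annotated spans share 682 bases. No protein-coding gene lies in the 54966 bases between Parp14 and Dtx3l. Whether the counting used strand is not given in the sources used here, so reads from the shared bases of Dtx3l and Parp9 cannot be assigned for certain.

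Parp14 is the largest ADP-ribosyltransferase of the group and is known as a partner of Stat6 in interleukin 4 signalling. Its reads numbered 1685, 1422 and 1687 from KO library 1 to 3 and 747, 860, 1017 and 1088 from WT library 1 to 4, the order used throughout. The lowest KO library stood 31.2% above the highest WT library once scaled to CPM. KO averaged 74.6 ± 5.59 CPM (SD, n = 3) against 45.8 ± 5.82 CPM for WT (SD, n = 4), which the fit put at a log2 fold change of 0.70 ± 0.11 (SE). The single coding transcript of 7417 bases held 99.6 to 100% of the gene's reads in each library.

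Parp9, the macrodomain partner, was read 1411, 1197 and 1093 times in KO, against 742, 611, 728 and 753 times in WT. KO library 1 was the highest, and WT library 2 the lowest. KO averaged 57.7 ± 8.39 CPM (SD, n = 3) against 35.2 ± 4.2 CPM for WT (SD, n = 4), and the fitted log2 fold change was 0.71 ± 0.12 (SE). Of the coding transcripts, the one of 2973 bases held 72.4 to 78.7% of the Parp9 reads in KO and 69.98 to 84.5% in WT, so the shares overlapped. The longer one, of 3548 bases, starts further inside Dtx3l. Its share was 17.7 to 22.8% among KO libraries and 13.9 to 22.4% among WT libraries.

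Dtx3l, the ubiquitin ligase of that pair, had 940, 853 and 787 reads in KO and 390, 543, 554 and 611 in WT. WT library 1 was the lowest of the 7 libraries for Dtx3l but the highest of the WT libraries for Parp9, both in CPM. Dtx3l averaged 40.2 ± 4.3 CPM (KO, SD, n = 3) against 25.8 ± 3.52 CPM (WT, SD, n = 4), and its fitted log2 fold change was 0.64 ± 0.12 (SE). The ratio of Dtx3l reads to Parp9 reads was 0.666, 0.713 and 0.72 for KO, against 0.526, 0.889, 0.761 and 0.811 for WT. The KO ratios thus lay inside the WT range, and WT library 1 had the lowest ratio of all. Haemoglobin took its highest share of reads in WT library 1, and the part of that in the Dtx3l value was not tested.

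Parp12, a zinc-finger member with a WWE domain that binds ADP-ribose, lies on chromosome 6 (39086410 to 39118349, minus strand). It had 765, 680 and 717 reads in KO and 322, 382, 397 and 530 in WT. WT library 4 stood above the other WT libraries but under each KO library, at 25.4 CPM against 32.4 CPM in the lowest KO library. The log2 fold change was 0.74 ± 0.13 (SE), from 33.7 ± 1.94 CPM in KO libraries (SD, n = 3) and 20.1 ± 3.61 CPM in WT libraries (SD, n = 4).

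Parp10, a transferase of single ADP-ribose units, lies on chromosome 15 (76231174 to 76243441, minus strand). It had 1055, 980 and 1011 reads in KO and 673, 680, 691 and 811 in WT. The lowest KO library stood 17.9% above the highest WT library in CPM. The KO mean was 47.5 ± 1.91 CPM (SD, n = 3) and the WT mean 35.3 ± 2.69 CPM (SD, n = 4), a log2 fold change of 0.43 ± 0.08 (SE). In TPM, which corrects for transcript length, KO library 2 (14.9 TPM) and WT library 4 (15 TPM) overlapped. Parp10 thus did not stand clear on that scale. The Parp10 span overlaps that of Plec on the same strand by 1401 bases. With an offset for transcript length the log2 fold change of Parp10 was 0.30.

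Parp11 did not share the pattern. This WWE-domain member is on chromosome 6 (127446840 to 127494261, plus strand), and it had 460, 393 and 505 reads in KO and 446, 429, 449 and 494 in WT. The groups overlapped, with the lowest value in KO library 2 and the highest in WT library 1 once scaled to CPM. The averages were 21.1 ± 2.03 CPM for KO (SD, n = 3) against 22.5 ± 1.5 CPM for WT (SD, n = 4), and the log2 fold change was -0.09 ± 0.09 (SE). On the log2(TPM + 0.1) scale it was 0.10, where the median over all genes was 0.129, so Parp11 stood below that median on both scales.

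The reads of Parp11 were divided between transcripts from different start sites, and the division varied from library to library. The 3414-base transcript, from the first start (127446840), had 176, 78.3 and 235 reads in KO and 362, 239, 188 and 269.7 in WT. The 3746-base transcript, from a start at 127453723, had 186, 255 and 199 reads in KO and 0, 117, 203 and 159.97 in WT. WT library 1 had 0 reads on the latter and the most on the former. The first averaged 7.54 CPM for KO and 13.2 CPM for WT, and the other 9.996 and 5.79 CPM. In CPM both sets of values overlapped between the groups. The split between transcripts is an estimate of Salmon's model.

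**Figure D2:**
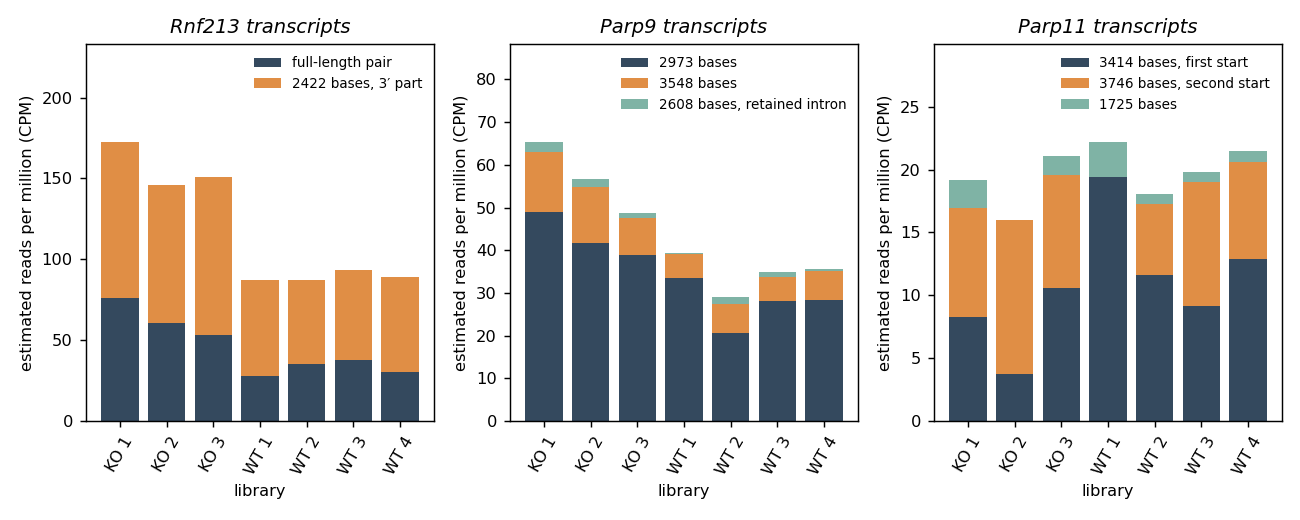
CPM of the main transcripts, by length, of Rnf213, Parp9 and Parp11, stacked in 1 bar per library. Both Rnf213 parts are higher in the KO bars, the shares of the Parp9 transcripts overlap between the groups, and WT library 1 shows no Parp11 transcript of 3746 bases.

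Rnf213 had the most reads of the 8 genes and, in the main fit, the largest fold change among them. With the offset for transcript length the log2 fold change of Parp12 was larger, at 0.77 against 0.74. On log2(TPM + 0.1) it was larger too, at 0.93 against 0.89. The same held with the sample number as a block, and without WT library 4, each at 0.88 against 0.81. In the other alternative fits Rnf213 stayed the largest. Rnf213 is on chromosome 11 (119393100 to 119487418, plus strand). It had 3680, 3039 and 3340 reads in KO and 1630, 1795, 1933 and 1861 in WT, and the WT libraries lay close together, at 87 to 93.7 CPM. The lowest KO library was 55.9% above the highest WT library. The KO mean was 157 ± 14.2 CPM (SD, n = 3) and the WT mean 89.3 ± 3.07 CPM (SD, n = 4), a log2 fold change of 0.81 ± 0.08 (SE).

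Most Rnf213 reads were assigned to a short transcript at the 3′ end. It is 2422 bases long (119478057 to 119487417), while a pair of full-length transcripts are each 16716 bases and end at 119487415 and 119487418. The short transcript held 56 to 64.6% of the reads of the gene in KO and 59.6 to 68% in WT. Reads of the long pair swung between its near-identical entries, with 0 on the first in KO library 2 and WT libraries 1 and 4, and 0 on the other in WT library 3. Summed over the pair, they were 1619, 1260 and 1181 in KO and 521, 726, 776 and 639 in WT. Both the long pair (mean 63.3 CPM for KO, 32.8 CPM for WT) and the short transcript (93.3 and 56.5 CPM) were higher in each KO library than in each WT library.

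Samd9l, on chromosome 6 (3372257 to 3399572, minus strand), showed the smallest fold change of the 7 in the main fit. It had 1966, 1735 and 1889 reads in KO and 1134, 1237, 1492 and 1541 in WT. The WT libraries fell into a lower pair (libraries 1 and 2, at 60.8 and 59.9 CPM) and a higher pair (libraries 3 and 4, at 72.3 and 73.7 CPM), and the KO libraries lay at 83.4 to 92.3 CPM. The KO mean was 87 ± 4.66 CPM (SD, n = 3), the WT mean 66.7 ± 7.34 CPM (SD, n = 4) and the log2 fold change 0.38 ± 0.10 (SE). All Samd9l reads were on a single transcript of 5330 bases in each library.

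Per length, Rnf213 was the highest of the 8 genes and Dtx3l the lowest in both groups. In WT, Rnf213 was at 24.8 ± 2.34 TPM (SD, n = 4), Parp10 at 12.7 ± 1.6, Samd9l at 12.3 ± 2.6, Parp9 at 11.9 ± 1.12, Parp11 at 10.1 ± 1.31, Parp12 at 6.88 ± 1.61, Parp14 at 5.7 ± 1.18 and Dtx3l at 4.68 ± 1.05 TPM. Only Rnf213 had no overlap with its neighbour in this order, and the ranges of every other pair of neighbours overlapped. In KO the order was Rnf213 (46.1 ± 5.51 TPM, SD, n = 3), Parp9 (21.6 ± 3.52), Samd9l (17.9 ± 1.55), Parp10 (17.4 ± 2.3), Parp12 (12.9 ± 1.45), Parp11 (10.8 ± 1.21), Parp14 (10.2 ± 1.27) and Dtx3l (7.94 ± 0.976). There the ranges did not overlap between Rnf213 and Parp9 or between Parp10 and Parp12. The first place of Rnf213 rests on its short transcript, since the long pair alone was at 1.73 ± 0.386 TPM in WT and 3.65 ± 0.761 TPM in KO, below each of the other 7 genes.

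**Figure D3:**
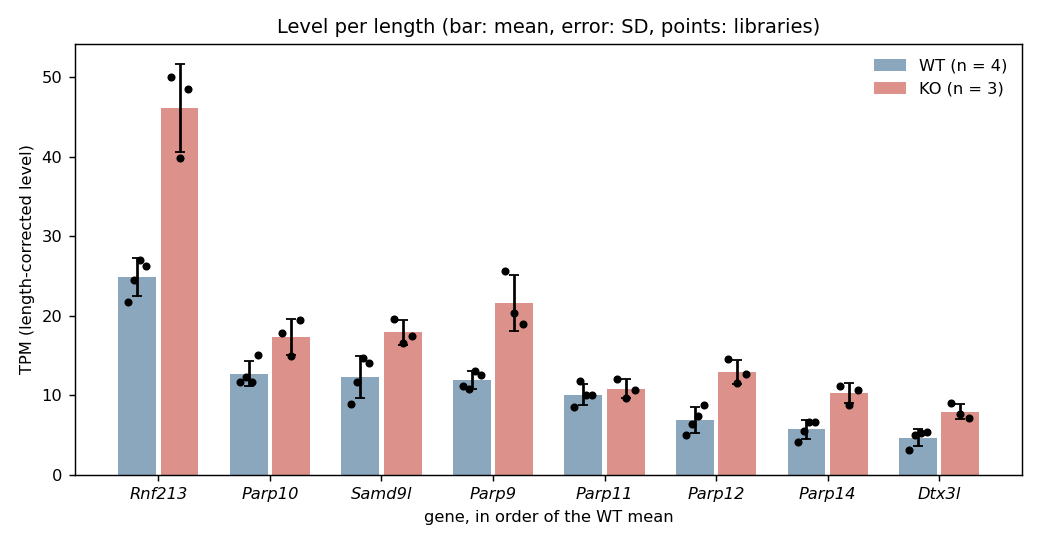
Length-corrected level (TPM) of the 8 genes in the order of their WT means, with bars at the mean, error bars of 1 SD and a point per library (WT n = 4, KO n = 3). Rnf213 stands above the rest in both groups, and Parp11 has bars of nearly equal height.

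Within the groups, KO library 1 was the highest KO library for 7 of the 8 genes (all but Parp11), and the lowest was KO library 2 for 4 and KO library 3 for 4. WT library 4 was the highest WT library for 5 genes, and WT library 2 the lowest for 5. The median deviation of the 8 from their WT means on the log2(CPM + 0.5) scale was 0.78, 0.62 and 0.48 for KO, against -0.11 to 0.14 for WT. The SD of a gene within a group ran from 0.05 (Rnf213 in WT) to 0.24 (Parp12 in WT) on that scale. KO library 1 also kept the most Aim2 reads of the KO libraries.

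The start-site windows of these genes were searched for letters of known interferon response elements, because the genes are known interferon targets. RefSeq windows on GRCm38.p6 (250 bases before to 50 after a start) were found for 5 of the 8 genes, Parp11, Parp12, Dtx3l, Rnf213 and Samd9l, with 2 windows for Parp11. The Rnf213 window (119389849 to 119390148) lies outside the annotated span used here, which starts at 119393100. The Dtx3l window (35938978 to 35939277) also holds the annotated start of the 2973-base Parp9 transcript, at 35939011. The ISRE-type pattern, 2 copies of GAAA with any 2 letters between them on either strand, was in 3.44% of all 32851 windows. Among the 6 windows it was only in that of the first Parp11 start. The GAS-type pattern TTCNNNGAA, which reads the same on both strands, was in 8.3% of all windows and again only there. A shorter pattern, GAAACT on either strand, was added after the sequences were seen, and it was in 15.8% of all windows and in those of Samd9l, Parp12, Dtx3l and the first Parp11 start. Shown are the Parp11 match at chr6:127446786-127446815 (plus strand), a Dtx3l match at chr16:35939088-35939117 (minus strand) and the Samd9l match at chr6:3399523-3399552 (minus strand), each 5′ to 3′ along its gene, with the matched letters in capitals. The Parp11 letters match on the opposite strand.
Parp11, ISRE-type: ttccttttagTTTCGATTTCttggaacccg
Dtx3l, GAAACT: tgccaccgtaggGAAACTtcctctgagcgc
Samd9l, GAAACT: tgtatcagaatcGAAACTggaaactgaagc
The Parp11 match lies 44 to 35 bases before the RefSeq start and its GAS-type match, 37 to 29 bases before it, overlaps those letters, as does a GAAACT match on the opposite strand. The Samd9l match lies 31 to 36 bases after the start, and a second copy follows at 38 to 43. Of the 5 genes with a window, Parp11 alone held the ISRE-type letters, and its groups overlapped in CPM. Parp9, Parp10 and Parp14 had no window of their own to search. A link between the letters and the KO to WT values was not tested. These matches are letters in a window, and no binding was measured.

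Of the other genes of the PARP family, all 11 were tested and 0 passed (edgeR's quasi-likelihood test, adjusted over all genes; 0 also with DESeq2), while an unadjusted p was under 0.05 for 2, both higher. Their median log2 fold change was 0.10, with a range from -0.18 to 0.28. Over all 14238 tested genes, edgeR's unadjusted p was under 0.05 for 918 higher and 713 lower. The unadjusted counts of this list and the lists below are to be read beside those. Tiparp, a target of the aryl hydrocarbon receptor, was at 15.5 ± 0.024 CPM for KO (SD, n = 3) and 12.8 ± 1.53 CPM for WT (SD, n = 4; adjusted p = 0.361). Tnks, a tankyrase that builds chains on telomere and Wnt proteins, was at 47.9 ± 2.88 and 41.6 ± 2.85 CPM (adjusted p = 0.366). Zc3hav1, the antiviral zinc-finger member without transferase activity, was named after its values were seen, at 165 ± 20.1 and 153 ± 9.99 CPM (log2 fold change 0.11 ± 0.10, SE; adjusted p = 0.724). A difference between these 11 and the 8 genes was not tested.

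**Figure D4:**
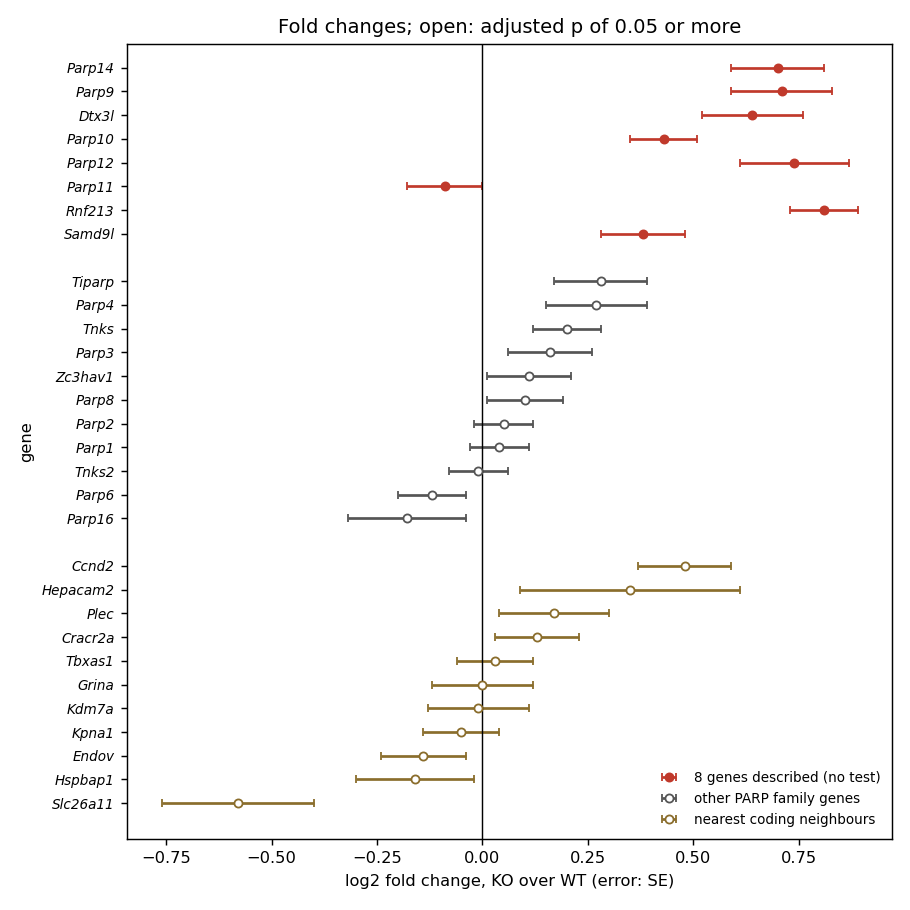
Log2 fold changes of KO over WT with their standard errors for the 8 genes (red, without a test), the 11 other PARP family genes and the 11 nearest coding neighbours. The 8 are drawn filled whatever their adjusted p, which was under 0.05 for Rnf213 and Parp14 only. Among the other genes, open points mark an adjusted p of 0.05 or more, which holds for every one of them.

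Genes that remove or read ADP-ribose and genes that supply NAD gave no call with edgeR, while DESeq2 called 2 of the latter. Of 13 tested genes of removal and reading 0 passed, none had an unadjusted p under 0.05, DESeq2 called 0, and the median log2 fold change was -0.05. Oard1, which strips ADP-ribose from proteins, was at -0.27 ± 0.12 (log2 fold change, SE; adjusted p = 0.443), and Adprhl2, which cuts it from serine, at -0.19 ± 0.09 (adjusted p = 0.481). Of 13 tested genes of NAD supply and use 0 passed, with 4 at an unadjusted p under 0.05 (2 higher, 2 lower) and 2 called by DESeq2. The DESeq2 calls were Bst1, an ectoenzyme that consumes NAD, at 26.5 ± 1.52 CPM for KO (SD, n = 3) and 16.9 ± 3.04 CPM for WT (SD, n = 4; edgeR adjusted p = 0.113), and Nampt, the rate-limiting enzyme of NAD salvage, at 69.1 ± 3.77 and 57 ± 3 CPM (edgeR adjusted p = 0.159). The list median was -0.03 and its mean 0.03.

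Deltex relatives and the repair partners of Parp1 gave no call with edgeR, while DESeq2 called 2 deltex relatives. Of 10 tested genes of the deltex list 0 passed with edgeR, 2 had an unadjusted p under 0.05 and those 2 were the DESeq2 calls. Dtx1, a Notch pathway gene of B lineage cells, was at 2.07 ± 1.07 CPM for KO (SD, n = 3) and 6.03 ± 1.1 CPM for WT (SD, n = 4; edgeR adjusted p = 0.139), opposite in direction to Dtx3l. Rnf114, a ubiquitin ligase, was at 109.98 ± 6.01 and 85.6 ± 7.07 CPM (edgeR adjusted p = 0.123). Of 9 repair partners 0 passed, with 1 lower at an unadjusted p under 0.05, 0 with DESeq2, and a median log2 fold change of -0.09. The scaffold Xrcc1 was at 46.1 ± 1.43 CPM for KO and 53.8 ± 1.85 CPM for WT (adjusted p = 0.184).

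The interferon signalling list holds 14 genes, the feedback inhibitors Socs1 and Socs3 among them, and 4 rose, 0 fell and 10 did not pass, where 0.478% of all tested genes rose. The list was put together with earlier results of these data known, so its count is a description and no independent evidence. Transcription factors were among them. On the log2 scale Irf7 was up by 1.21 ± 0.18 (SE; adjusted p = 0.0327, edgeR), Irf9 by 0.63 ± 0.10 (adjusted p = 0.0451) and Stat2 by 0.45 ± 0.06 (adjusted p = 0.0248). The receptor genes Ifnar1 and Ifnar2 were at 0.05 ± 0.06 and 0.16 ± 0.08 (adjusted p = 0.843 and 0.46), and the kinases Jak1 and Tyk2 at 0.08 ± 0.09 and 0.21 ± 0.11 (adjusted p = 0.802 and 0.499). The receptor and kinase genes were picked with their values known. The 14 had a median log2 fold change of 0.23, and all 14 were above 0. The calls depended on single libraries, since 0 of the list passed without KO library 1 or 2 or WT library 2 or 3, and 2 passed without KO library 3 or WT library 1 or 4. With an offset for transcript length 0 passed, and on TPM values 1 passed. DESeq2 called 5.

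The nearest protein-coding genes on either side of the 8 did not pass. There were 11 such genes, since Parp14, Dtx3l and Parp9 share theirs and Samd9l has none at lower coordinates, and 0 of 11 passed with edgeR (2 at an unadjusted p under 0.05, 1 with DESeq2). Around the chromosome 16 cluster, Hspbap1 lies 4397 bases from Parp14 and was at 20.2 ± 2.74 CPM for KO (SD, n = 3) and 22.5 ± 3.05 CPM for WT (SD, n = 4; adjusted p = 0.722). Kpna1, an importin 6145 bases beyond Parp9, was at 73.9 ± 4.68 and 76.3 ± 6.69 CPM (adjusted p = 0.894). Both were named after their values were seen. The smallest p-values belonged to Ccnd2, a cyclin 294647 bases from Parp11 (76 ± 9.29 CPM for KO, 54.6 ± 5.88 CPM for WT; adjusted p = 0.135, and the 1 gene called by DESeq2), and to Slc26a11 beside Rnf213 (4.55 ± 0.529 and 6.81 ± 1.29 CPM; adjusted p = 0.271).

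The 6 genes whose values over the 7 libraries were most like the mean of the 8 lay on none of the chromosomes that hold the 8. Likeness was the root mean square of the differences in log2(CPM + 0.5) after the WT mean was taken off, over the 10865 genes that averaged 5 CPM or more. Closest were Gcnt2 and Sp100 (both 0.038), Tap1 (0.043), Helz2 (0.077), Serpina3g (0.081) and Afap1l2 (0.082), beside a median of 0.393. Sp100 is a nuclear body protein, Tap1 a peptide transporter for class I presentation, and Gcnt2 an enzyme of glycan branching. Their deviations in KO libraries 1 to 3 were 0.63, 0.47 and 0.54 for Gcnt2 and 0.59, 0.44 and 0.55 for Sp100, and the mean of the 8 was at 0.64, 0.48 and 0.49. On log2(TPM + 0.1) 3 of the 6 stayed among the closest 6.

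**Figure D5:**
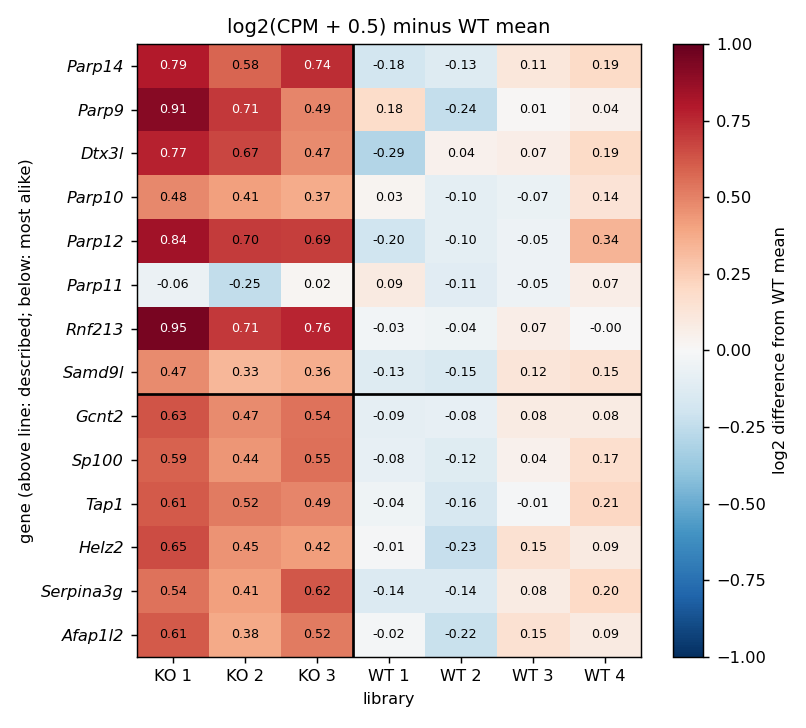
Difference of log2(CPM + 0.5) from the WT mean in each library, for the 8 genes above the line and the 6 genes most like their mean below it, in colour and in figures. The KO columns are positive for all rows but Parp11, and KO 1 holds the highest KO value for 7 of the 8 genes.

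Summed markers of several cell types stood apart between the groups alongside the 8 genes. The summed level of 8 monocyte and macrophage markers was 1135 to 1363 CPM in KO and 698 to 1015 CPM in WT, with all 8 higher on average in KO and 4 of 8 without overlap. Over all tested genes 6.95% were higher and 5.94% lower without overlap. Endothelial markers summed to 222 to 224 CPM in KO and 176 to 186 CPM in WT, with 4 of 5 markers higher without overlap. Plasma cell markers summed to 687 to 853 CPM in KO and 426 to 649 CPM in WT, with 3 of 6 without overlap. B lineage markers summed to 161 to 274 CPM in KO and 352 to 542 CPM in WT, with 0 of 8 higher on average and 5 of 8 lower without overlap. Neutrophil markers summed to 20552 to 22334 CPM among KO and 16048 to 20721 CPM among WT libraries, so the sums overlapped, with 7 of 8 markers higher on average and 4 of 8 higher without overlap. T and NK cell markers summed to 52.7 to 62.4 CPM among KO and 60.3 to 83.3 CPM among WT libraries, with 3 of 8 lower without overlap. Sums of plasmacytoid dendritic cell markers (109 to 187 and 119 to 150.4 CPM) overlapped, with 0 of 6 markers free of overlap. Over all 14 marker lists 0 genes passed with edgeR, while DESeq2 called 15. None of these monocyte, endothelial, plasma cell or B lineage markers was at 0 in a library. Their part in the values of the 8 genes was not tested. Skeletal muscle markers ran from 48.4 CPM in KO library 1 to 4818 CPM in KO library 3, and from 851 to 1733 CPM in WT. The part of muscle carry-over in the values of the 8 genes was not tested either.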

How the data were processed

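Expected counts and TPM per transcript were deposited by the authors for 3 KO and 4 WT libraries. Per the submitters' processing notes, reads were checked with FastQC 0.11.9 and quantified with Salmon 1.7.0 on GRCm38.p6, and DESeq2 was used; Salmon options and annotation release are not given in the sources used here. Per the labels, libraries were stranded mRNA libraries read on DNBSEQ. The deposited estimated counts were summed per gene through GENCODE M21 (569 of 116546 transcripts had no gene) and rounded. The deposited TPM values, scaled by the authors' Salmon run to effective length and library total, were summed per gene and give levels per length only. Effective lengths, also in those files, served as an offset in an alternative.

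Genes were filtered with filterByExpr, scaled with TMM factors (0.918 to 1.06) and tested with edgeR 4.0.16 (quasi-likelihood, no covariates, Benjamini-Hochberg over 14238 genes, threshold 0.05) in R 4.3.3, after a check on simulated counts. SE is the absolute log2 fold change over the square root of F. The members and lists were chosen with earlier results of these data known. Named were the 8 genes, Aim2, in each list the genes that passed (at most 6) or the 2 with the smallest p, and the 6 most alike; others are said to be named later. The values of some genes that this rule names are not reported here. Alternatives were RLE scaling, TMM without haemoglobin, immunoglobulin and mitochondrial genes, DESeq2 1.42.0, no filter (at least 1 read), the length offset, limma 3.58.1 on log2(TPM + 0.1) and log2(TPM + 1), the sample number as a block, coding transcripts only, and each library left out. No libraries of a group agreed within sampling noise (chi-square per degree of freedom 9.52 to 58.8). Same-numbered libraries did not deviate together, which cannot exclude pairs among so few libraries. Numbers were not taken as pairs in the main fit.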

Additional observations from a re-analysis of the deposited data

How the results depend on the processing

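The median log2 fold change of the 8 genes stayed between 0.59 and 0.81 in all 15 alternative fits, and 7 of the 8 lay above the median of all genes in each; that median moved to 0.129 and 0.103 on log2(TPM + 0.1) and log2(TPM + 1). The number of the 8 with an adjusted p under 0.05 (2) was 7 with DESeq2 and 4 without a filter. It was 1 with the length offset and with either TPM scale, and 1 to 3 with a library left out. Without a filter, 121 of all 20374 genes tested passed. Over all genes the count of 92 became 405 with DESeq2, 55 with the offset, 49 and 50 on the TPM scales and 17 to 65 with a library left out, and the share of higher genes among the calls, 73.9%, was 64% with DESeq2, 80% with the offset, 87.8 and 90% on the TPM scales (43 and 45 higher, 6 and 5 lower), 95.2% with the replicate block and 69.2 to 95.5% with a library left out. The interferon signalling count (4) was 5 with DESeq2, 4 without a filter and 3 with RLE scaling. It was 0 with the offset, 1 on each TPM scale and 0 to 2 with a library left out. DESeq2 called 2 genes each in the deltex and NAD lists, 1 neighbour and 15 cell type markers; without a filter 2 markers passed, with the offset 1, and with a library left out 0 to 1. Of the 6 genes most alike 3 were the same on log2(TPM + 0.1). The highest WT level per length was 5.31 times the lowest among the 8, and 4.98 to 5.48 times with a library left out. With the sample number as a replicate block, 21 genes, 0 of the 8 and 1 interferon signalling gene passed. Deviations of same-numbered libraries correlated at 0.0991, -0.0251 and -0.258, and KO library 1 correlated best with WT library 3 (0.247). The deviations were taken from group means of few libraries, which ties them to each other. These correlations therefore cannot decide whether the numbers mark pairs. The causes of these changes were not tested. Both depth and reads shared by transcripts of 1 gene limit the transcript values.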
